A study of Mus musculus with 9 samples.

Results

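Transcription factors that define sensory neurons were followed in the trigeminal ganglion (TG) of mice after injection of complete Freund's adjuvant (CFA) into the temporomandibular joint (TMJ). The genes were 9 transcription factors, Pou4f1, Isl1, Isl2, Runx1, Runx3, Prdm12, Tlx3, Drgx and Shox2, together with the antisense lncRNA Gm17226, which is annotated within Isl2. They were chosen by name, with earlier results of these data known. These 10 were taken from 31742 genes named in the mRNA and lncRNA tables (21809 and 9933). Total RNA was sequenced in 9 libraries of male wild-type (WT) C57BL/6 mice aged 8 weeks. The 3 groups were saline (replicates 1 to 3, 10 µl of saline, labelled day 3), CFA3D (replicates 1 to 3, 10 µl of CFA at 5 mg/ml, day 3) and CFA6D (replicates 4 to 6, the same dose, day 6). The injection was unilateral, and each library pooled unilateral TG punches of 3 mice, so that each group had 3 pools and no library shows 1 animal. Since the saline libraries are labelled day 3, the effect of CFA and that of the time since injection cannot be told apart in CFA6D against saline. The value of a gene is the sum of the FPKM of its transcripts, where FPKM (fragments per kilobase and unit of sequencing depth) corrects for transcript length and library size.

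As background, neurons of the TG carry touch, temperature and pain from the face, and they keep many of the transcription factors that set their identity in the embryo. Pou4f1, a POU homeodomain factor also known as Brn3a, and Isl1, a LIM homeodomain factor, act in nearly all sensory neurons and together end the early neurogenic programme. Isl2 is the close relative of Isl1. Prdm12 is needed to form nociceptors, the neurons that detect painful stimuli, while Tlx3 and the paired homeobox factor Drgx act in nociceptor and relay circuits. Runx1 sets the non-peptidergic nociceptor class, Runx3 acts in neurons of the Ntrk3 class, and Shox2 in touch neurons of the Ntrk2 class.

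The neuronal RNA of the libraries was checked with 10 neuronal markers, named pan-neuronal markers here, all of which were above 0 in all libraries. They do not show which ganglion the tissue came from. Their summed level ranged from 2194 to 2804 FPKM in saline, from 2625 to 3074 FPKM in CFA3D and from 2708 to 3218 FPKM in CFA6D. Some libraries stood apart from the rest. Saline replicate 3 held pituitary transcripts, with 10672 FPKM summed over 7 pituitary markers, and CFA6D replicates 4 and 5 held 1116 and 409 FPKM of them, whereas the lowest library had 8.93. Saline replicate 2 held the most skeletal muscle and adipocyte marker RNA (119 and 27.9 FPKM), and CFA6D replicate 4 the least of the CNS glia markers (32.3 FPKM, against 98.8 to 167 in the other libraries), and the part of these in the results was not tested. CFA6D replicate 6 held 2483 FPKM of 6 marrow granulocyte markers, against 21.7 to 124 FPKM in the other libraries, and it was separated from the rest on the first principal component (29.1% of the variance). The depth behind the values was 30.0 to 42.2 M read pairs per library, and a single read pair on 1 kb of RNA equalled 0.0237 to 0.0333 FPKM. By this measure about 22 to 41 read pairs per library stood behind Gm17226, 90 to 303 behind Runx3, 118 to 216 behind Shox2 and at least 520 behind each of the other genes. In whole-ganglion RNA, fewer cells of a type and less RNA per cell cannot be told apart.

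The upstream sequences of 6 of the genes are shown, because these genes passed the test on day 6 or lie beside a second transcript start. Each is the 250 bases before the annotated start of the most abundant coding transcript (GENCODE release M21), read from the reference genome (GRCm38.p6), in the direction of the gene. Capitals mark matches on either strand to the TATA box (TATAAA), the CCAAT box (CCAAT), the GC box (GGGCGG), a homeodomain core (TAATTA), a Runx core (TGTGGT) and an AP-1 site (TGANTCA).
Pou4f1 (chr14:104468000-104468249, minus strand): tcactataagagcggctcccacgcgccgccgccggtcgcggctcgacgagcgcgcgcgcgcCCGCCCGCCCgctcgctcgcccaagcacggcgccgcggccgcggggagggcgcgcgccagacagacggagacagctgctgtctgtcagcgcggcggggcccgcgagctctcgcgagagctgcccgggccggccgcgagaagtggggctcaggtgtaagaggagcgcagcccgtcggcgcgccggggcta
Isl2 (chr9:55540898-55541147, plus strand): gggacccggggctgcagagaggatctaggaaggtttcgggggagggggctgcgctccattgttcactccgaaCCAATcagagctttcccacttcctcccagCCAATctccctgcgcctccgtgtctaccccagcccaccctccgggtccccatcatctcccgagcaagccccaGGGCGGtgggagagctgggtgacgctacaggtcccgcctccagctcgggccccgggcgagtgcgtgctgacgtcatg
Prdm12 (chr2:31639787-31640036, plus strand): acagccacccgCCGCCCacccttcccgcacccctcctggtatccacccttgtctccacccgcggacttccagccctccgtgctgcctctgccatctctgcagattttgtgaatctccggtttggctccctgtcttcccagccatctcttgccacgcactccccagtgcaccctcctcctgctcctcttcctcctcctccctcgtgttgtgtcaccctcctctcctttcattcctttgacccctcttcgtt
Tlx3 (chr11:33203590-33203839, minus strand): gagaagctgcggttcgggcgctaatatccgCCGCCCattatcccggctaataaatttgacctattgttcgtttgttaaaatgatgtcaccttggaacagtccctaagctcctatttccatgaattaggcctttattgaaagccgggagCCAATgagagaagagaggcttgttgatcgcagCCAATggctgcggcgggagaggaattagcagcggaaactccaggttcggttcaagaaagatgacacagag
Drgx (chr14:32599158-32599407, plus strand): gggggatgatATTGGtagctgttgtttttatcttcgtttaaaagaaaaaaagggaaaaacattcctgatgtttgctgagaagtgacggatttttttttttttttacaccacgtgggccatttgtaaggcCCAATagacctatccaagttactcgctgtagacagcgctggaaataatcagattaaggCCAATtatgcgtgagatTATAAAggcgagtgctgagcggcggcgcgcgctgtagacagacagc
Runx3 (chr4:135120402-135120651, plus strand): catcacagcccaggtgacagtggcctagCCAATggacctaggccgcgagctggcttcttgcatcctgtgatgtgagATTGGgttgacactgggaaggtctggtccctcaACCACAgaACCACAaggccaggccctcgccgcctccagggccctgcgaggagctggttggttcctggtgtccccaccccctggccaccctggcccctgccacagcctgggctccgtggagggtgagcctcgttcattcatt
Among the same windows of 16008 expressed coding genes, 7.38% held the TATA box, 34.6% the CCAAT box, 52.8% the GC box, 2.71% the homeodomain core, 11.2% the Runx core and 4.44% the AP-1 site. Of the 9 coding genes, 3 held the TATA box (Runx1, Drgx and Shox2), 5 the CCAAT box (Isl1, Isl2, Runx3, Tlx3 and Drgx) and 5 the GC box (Pou4f1, Isl2, Prdm12, Tlx3 and Shox2). The TATA box match began 46 bases before the start in Drgx, but 246 bases before it in Runx1 and 203 in Shox2. These distances depend on the annotation. The start used lies 519 bases from that of a second annotation (RefSeq) in Drgx, and 1204 and 129949 bases from its starts in Runx1. In Shox2 the starts agree (0 bases apart). The Runx core was found in the Runx3 window only, and the homeodomain core and the AP-1 site in 0 of the 9. In the Pou4f1 window the GC boxes overlap each other. The GC content was 78.0% in the Pou4f1 window and 43.2% in the Drgx window, with a median of 58.4% over all windows. These are letter matches and not sites of binding, and no assay of binding was part of the data.

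The levels differed widely between the genes, and they are compared here per kilobase. Isl2 was the highest, with a mean of 56.2 FPKM over the 9 libraries (range 43.2 to 71.4), and no value of another gene of the group overlapped its range. Isl1 (24.3 ± 3.24 FPKM, SD over 9 libraries) and Prdm12 (23.0 ± 4.19) followed and overlapped, Isl1 being above Prdm12 in 5 of 9 libraries. Drgx (18.4 ± 2.36), Pou4f1 (18.0 ± 3.33) and Tlx3 (13.9 ± 2.08) came next with overlapping neighbours, and Runx1 (11.9 ± 1.73) was close behind Tlx3. Runx3 (2.05 ± 0.543), Shox2 (1.86 ± 0.334) and Gm17226 (1.25 ± 0.208) formed a lower range that none of the values above reached. The Isl2 sum is raised by short annotated transcripts, since the retained intron transcript Isl2-204 made up 27.8% of it on average and the full coding transcript Isl2-201 46.5%.

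**Figure D1:**
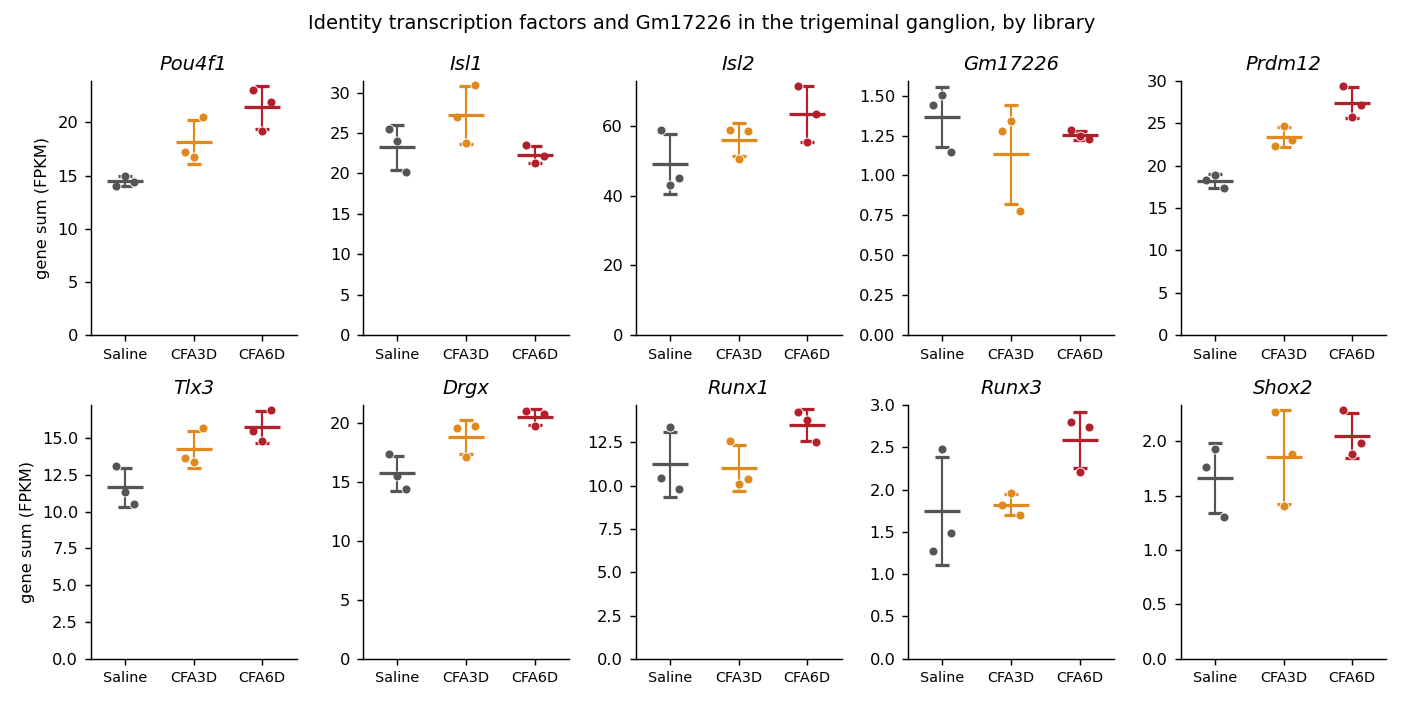
Gene sum (FPKM, vertical axes starting at 0) of the 10 genes in the Saline, CFA3D and CFA6D libraries; each point is 1 library, the horizontal line the group mean and the bars the SD over 3 libraries. In Prdm12 the 3 groups lie in separate ranges and in Pou4f1 every CFA library is above saline, whereas the groups overlap in Runx1, Shox2 and Gm17226.

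To ask which genes moved after CFA, gene sums were compared in limma as log2(FPKM + 0.1), so that fold changes of low genes are understated. On CFA3D, 4 of the 10 genes passed an unadjusted p of 0.05, all higher than saline, namely Prdm12, Pou4f1, Drgx and Tlx3. Among 16096 mRNA gene sums tested, 3.65% passed in this direction, and among 4122 lncRNA gene sums 3.76% passed in either direction. In 3 of the 10 genes (Pou4f1, Prdm12 and Tlx3) every CFA3D library was above every saline library, which held for 7.01% of all mRNA gene sums. On CFA6D, 6 of the 10 passed, all higher, with Isl2 and Runx3 in addition to the same 4 genes, against 8.22% of mRNA gene sums in this direction and 7.74% of lncRNA gene sums in either. In 4 of the 10 (Pou4f1, Prdm12, Tlx3 and Drgx) the groups did not overlap, against 10.7% of mRNA gene sums. The median log2 fold change of the 10 genes was 0.21 on CFA3D and 0.38 on CFA6D, whereas that of all mRNA gene sums was 0.05 and 0.03. With Benjamini-Hochberg adjustment over all gene sums, limma called 0 of the 10 genes on either day at an adjusted p of 0.05, and 0 of all 16096 mRNA gene sums. The comparisons share the saline libraries, so that the days are not independent of each other. The genes were also chosen with earlier results of these data known, so their counts stand beside the shares as a description only. The pools are the replicates, and the test measures the spread between pools.

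**Figure D2:**
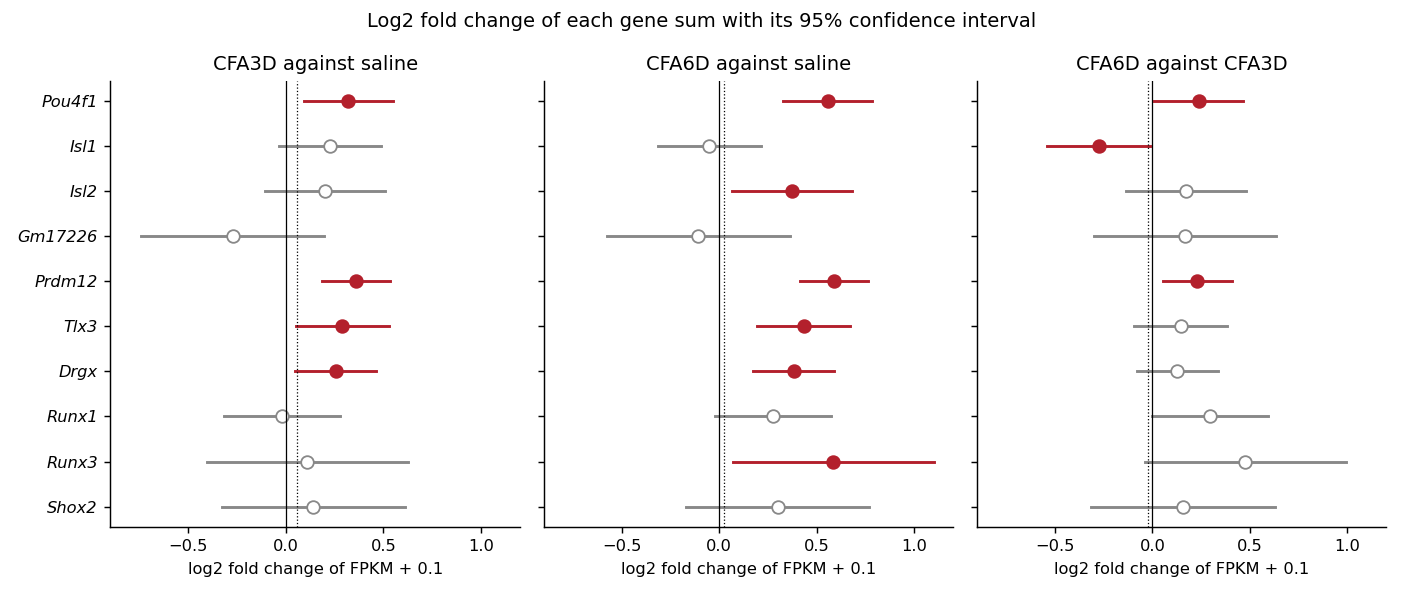
Log2 fold change of each gene sum (points) with its 95% confidence interval (lines) in the 3 comparisons; red marks an unadjusted p under 0.05, the solid vertical line 0 and the dotted line the median of all mRNA gene sums. The intervals of Prdm12, Pou4f1, Tlx3 and Drgx lie above 0 on both CFA days, and that of Isl1 lies below 0 in CFA6D against CFA3D.

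Among the pan-sensory factors, Pou4f1 (chr14:104461676-104467999, minus strand) was measured at 14.0, 15.0 and 14.4 FPKM in saline replicates 1 to 3. It was at 17.3, 16.7 and 20.5 FPKM in the CFA3D libraries and at 23.1, 19.2 and 22.0 FPKM in CFA6D replicates 4 to 6. All 6 CFA libraries lay above the saline range, while the CFA days overlapped in part. The log2 fold change of Pou4f1 was 0.32 ± 0.10 (SE) on CFA3D (limma adjusted p = 0.997) and 0.56 ± 0.10 on CFA6D (adjusted p = 0.103), or 1.25-fold and 1.47-fold. Its coding transcript Pou4f1-201, of 3 exons, carried 80.5% of the sum and rose by itself on both days (0.33 and 0.49 on the log2 scale). The noncoding processed transcript Pou4f1-202 was at 2.68, 3.14 and 2.21 FPKM in saline and at 5.13, 3.99 and 5.14 FPKM in CFA6D, a log2 fold change of 0.81 (limma adjusted p = 0.488).

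Isl1 (chr13:116298281-116309689, minus strand) was at 25.5, 24.0 and 20.2 FPKM in saline, at 27.0, 23.8 and 30.9 FPKM in CFA3D and at 23.5, 21.3 and 22.2 FPKM in CFA6D. CFA3D replicates 1 and 3 were above the saline range, and the other CFA libraries lay within it. Its log2 fold change was 0.23 ± 0.12 (SE) on CFA3D, with a 95% interval of -0.04 to 0.49, and -0.05 ± 0.12 on CFA6D, with an interval of -0.31 to 0.21. All CFA6D libraries were below all CFA3D libraries, and Isl1 was the only one of the 10 genes to pass lower in that comparison. The pituitary also makes Isl1, and saline replicate 3, the library with the most pituitary RNA, held the lowest Isl1 value of all 9 libraries. That library also had the lowest sum of the pan-neuronal markers (2194 FPKM) and the lowest Prdm12, Tlx3, Drgx and Shox2. How much of the Isl1 value came from pituitary cells was not tested. Of its 5 transcripts, the coding Isl1-201 carried 74.3% of the sum, and the retained intron transcript Isl1-205 fell from 3.29, 3.22 and 5.15 FPKM in CFA3D to 2.32, 2.72 and 2.86 FPKM in CFA6D.

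Isl2 (chr9:55538672-55546180, plus strand) was at 59.0, 43.2 and 45.2 FPKM in saline, at 59.0, 50.7 and 58.7 FPKM in CFA3D and at 71.4, 55.5 and 63.5 FPKM in CFA6D. The groups overlapped on both days, because saline replicate 1 was as high as the highest CFA3D library. The log2 fold change of Isl2 was 0.20 ± 0.14 (SE) on CFA3D and 0.37 ± 0.14 on CFA6D, and the latter passed (limma adjusted p = 0.347). The call was not made on the coding transcript Isl2-201 alone, where the log2 fold change on CFA6D was 0.27 ± 0.14 (limma adjusted p = 0.763). It was also lost without saline replicate 2, without saline replicate 3 and without CFA6D replicate 4.

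The transcripts Isl2-202 and Isl2-203, both annotated as targets of nonsense-mediated decay (the removal of RNAs with an early stop), exchanged places between libraries. They lack the third exon of Isl2-201 and differ from each other by 5 bases at the end of their exon 3, at chr9:55544360-55544364, and by 2 bases at their 3' end. The 30 bases around the splice site, which show how alike these transcripts are, are given with the 5 bases that only Isl2-203 keeps in capitals (chr9:55544345-55544374, plus strand).
Isl2 splice site: cacagtgacaaggcgGTGAGgtgctggtga
The 5 bases are followed by a second GT, the dinucleotide at which introns begin, so that an intron start stands at both positions. Isl2-203 was at 5.53 to 9.83 FPKM in 7 libraries and at 0.0637 and 0.0433 FPKM in CFA3D replicate 3 and CFA6D replicate 5. Isl2-202 was at 0.255 to 0.394 FPKM in those 7 libraries and at 18.6 and 18.0 FPKM in the same pair. Its share of the 2 transcripts together was therefore 2.78% to 4.96% in 7 libraries and 99.7% and 99.8% in the other pair. The exchange followed no group. The sum of both was 5.81 to 10.2 FPKM in the 7 libraries and 18.6 and 18.1 FPKM in the pair. The Isl2 gene sums of CFA3D replicate 3 and CFA6D replicate 5 (58.7 and 55.5 FPKM) still lay within the range of the other libraries. Whether the estimate divided the same reads differently among the Isl2 transcripts was not tested. With protein-coding transcripts only, an alternative chosen after the values had been seen, the log2 fold change of Isl2 on CFA6D was 0.30 ± 0.14 (SE) and did not pass, against 0.37 for the full sum.

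**Figure D3:**
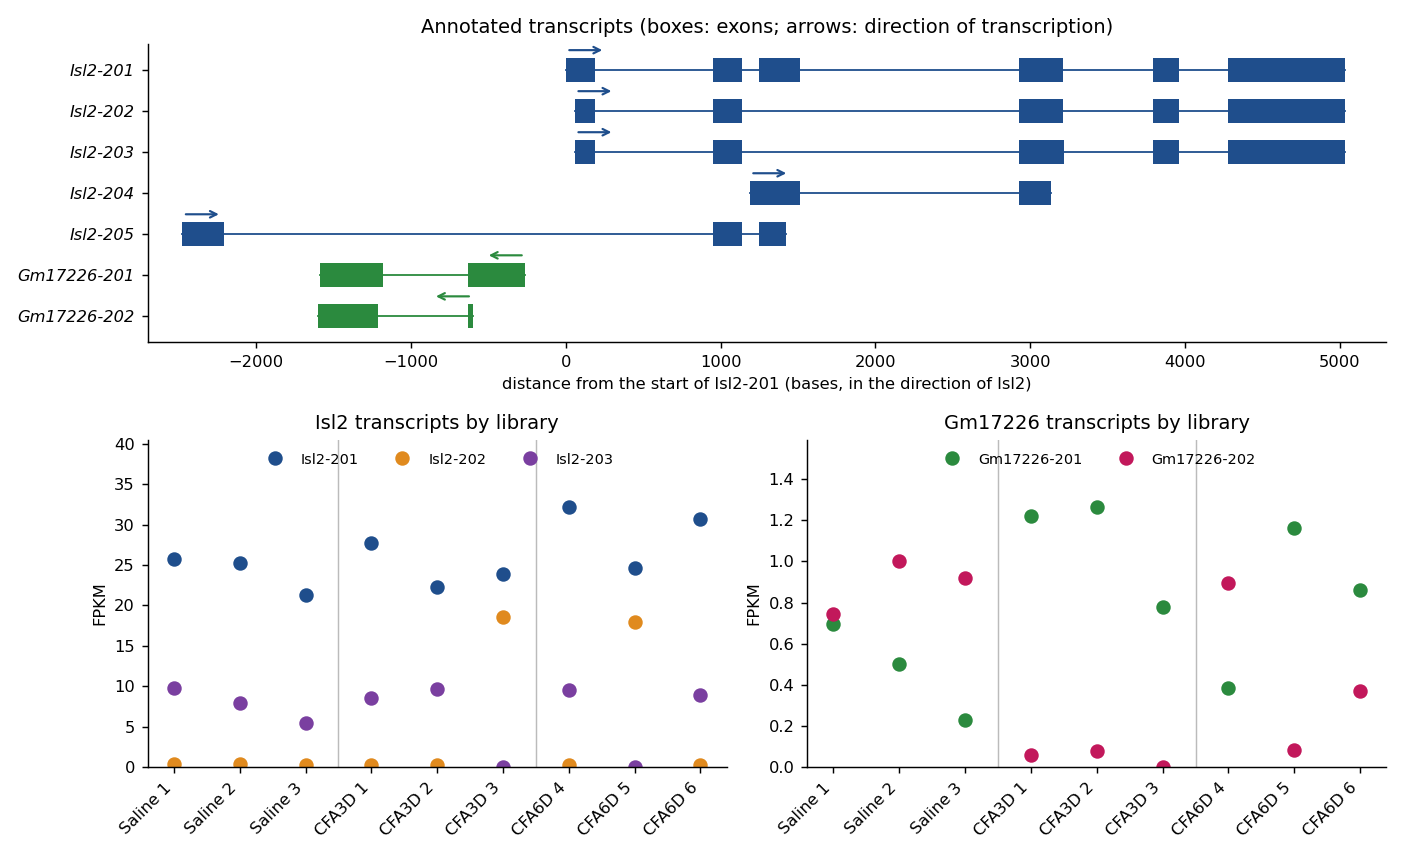
Top, the annotated transcripts of Isl2 and Gm17226 drawn to scale by distance in bases from the start of Isl2-201; bottom, FPKM of their transcripts in each of the 9 libraries. Isl2-202 and Isl2-203 exchange levels in CFA3D replicate 3 and CFA6D replicate 5, and Gm17226-202 is at or below 0.0795 FPKM in the 3 CFA3D libraries.

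Gm17226 (chr9:55539549-55540888, minus strand) lies in the first intron of Isl2-205 on the opposite strand and shares 0 exon bases with Isl2. Its transcript Gm17226-201 begins 260 bases from the start of Isl2-201 and runs away from it, so that the upstream window of Isl2 printed above lies between both starts. Gm17226 was at 1.44, 1.50 and 1.15 FPKM in saline, at 1.28, 1.34 and 0.777 FPKM in CFA3D and at 1.28, 1.25 and 1.23 FPKM in CFA6D. The groups overlapped, and the log2 fold changes of -0.27 ± 0.21 (SE) on CFA3D and -0.11 ± 0.21 on CFA6D did not pass. The 95% interval on CFA6D was -0.58 to 0.36. Across the 9 libraries no relation of Isl2 to Gm17226 was found, and so few libraries cannot exclude one. Pearson r was -0.20 (exact permutation p = 0.602, adjusted p = 0.659 over 5 relations). Spearman rho was -0.10 (exact permutation p = 0.81, adjusted p = 0.948). Without saline replicates 2 and 3, the libraries farthest from the median of Isl2, r was -0.03, and as deviations from the group means it was -0.09.

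The transcripts of Gm17226 did not move as its sum did. Gm17226-201 was at 0.698, 0.501 and 0.228 FPKM in saline and at 1.22, 1.26 and 0.777 FPKM in CFA3D. Gm17226-202 was at 0.743, 1.00 and 0.922 FPKM in saline, and at 0.0615, 0.0795 and 0 FPKM in CFA3D. Thus the first was higher and the second lower in every CFA3D library, with log2 differences of 1.11 (limma adjusted p = 0.998) and -2.78 (adjusted p = 0.738). In CFA6D replicate 4 the pair stood as in saline and in CFA6D replicate 5 as in CFA3D. About 9.6 to 15.6 read pairs in saline and 0 to 1.3 in CFA3D stood behind Gm17226-202, so that the size of its difference depends on the pseudocount. Most bases of Gm17226-202 also lie in exons of Gm17226-201, and whether the estimate divided the same reads differently was not tested.

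Among the genes of the nociceptor lineage, Prdm12 (chr2:31640037-31655795, plus strand), a PR domain zinc finger protein, showed the smallest p of the 10. It was at 18.3, 18.9 and 17.4 FPKM in saline, at 22.4, 24.7 and 23.0 FPKM in CFA3D and at 29.4, 25.8 and 27.2 FPKM in CFA6D. The 3 groups did not overlap each other. The log2 fold change of Prdm12 was 0.36 ± 0.08 (SE) on CFA3D (limma adjusted p = 0.997) and 0.59 ± 0.08 on CFA6D (adjusted p = 0.0729), or 1.28-fold and 1.51-fold. Prdm12 is annotated with 1 transcript, of 5 exons, so that no isoform assignment bears on its value.

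An antisense lncRNA, Gm13425 (chr2:31633453-31640589, minus strand), overlaps the start of Prdm12 and shares 200 exon bases with it. It was looked up with the other annotated genes within 5000 bases of the 10 genes, after their values had been seen. Gm13425 was at 6.57, 7.25 and 6.70 FPKM in saline, at 8.99, 8.23 and 8.52 FPKM in CFA3D and at 10.5, 9.55 and 9.25 FPKM in CFA6D. The groups stood in the same order as those of Prdm12 and did not overlap, and its log2 fold changes were 0.32 ± 0.12 (SE) on CFA3D (limma adjusted p = 0.996) and 0.51 ± 0.12 on CFA6D (adjusted p = 0.263). The strand setting of the counting is not given in the sources used here, so reads of the shared exon bases cannot be told apart with certainty. The other neighbours did not pass in any comparison, including the lncRNAs D130079A08Rik beside Pou4f1 (4.86 to 7.28 FPKM), Gm12116 with its start 466 bases from that of Tlx3 (2.05 to 3.38 FPKM) and Gm26626 within Runx1 (0.581 to 0.969 FPKM). Scaper beside Isl2 and Rsrc1 at the start of Shox2, both coding, did not pass either, and Gm16224 and Gm16225 at Runx3 were under 0.1 FPKM on average and not tested.

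Tlx3 (chr11:33200752-33203589, minus strand), a homeobox factor with 1 annotated transcript, was at 13.1, 11.3 and 10.5 FPKM in saline, at 13.7, 13.4 and 15.7 FPKM in CFA3D and at 15.5, 14.8 and 16.9 FPKM in CFA6D. All CFA libraries were above the saline range, the lowest only slightly. The log2 fold change of Tlx3 was 0.29 ± 0.11 (SE) on CFA3D (limma adjusted p = 0.997) and 0.43 ± 0.11 on CFA6D (adjusted p = 0.178). The CFA3D call was lost without saline replicate 2, saline replicate 3 or CFA3D replicate 3.

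Drgx (chr14:32599407-32649246, plus strand), named Prrxl1 in the annotation, was at 17.4, 15.5 and 14.4 FPKM in saline, at 19.6, 17.2 and 19.8 FPKM in CFA3D and at 21.1, 19.7 and 20.8 FPKM in CFA6D. CFA3D replicate 2 fell within the saline range, while the CFA6D libraries were above it. The log2 fold change of Drgx was 0.26 ± 0.09 (SE) on CFA3D (limma adjusted p = 0.997) and 0.38 ± 0.09 on CFA6D (adjusted p = 0.170). The CFA3D call was lost without saline replicates 2 or 3 and without CFA3D replicates 1 or 3. Of its 5 coding transcripts, Drgx-204 carried 60.6% of the sum and was at 10.5, 8.29 and 8.16 FPKM in saline and at 14.4, 12.6 and 14.0 FPKM in CFA6D (log2 fold change 0.61, limma adjusted p = 0.436). Drgx-202 was at 4.20 to 4.84 FPKM in saline and at 4.36 to 5.53 FPKM in CFA6D, with a log2 fold change of 0.11 ± 0.20 (SE).

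Among the class factors, Runx1 (chr16:92601466-92826149, minus strand) was at 10.5, 13.4 and 9.83 FPKM in saline, at 12.6, 10.1 and 10.4 FPKM in CFA3D and at 14.2, 13.8 and 12.5 FPKM in CFA6D. The groups overlapped on both days. Its log2 fold change was -0.02 ± 0.13 (SE) on CFA3D and 0.28 ± 0.13 on CFA6D, with 95% intervals of -0.32 to 0.28 and -0.02 to 0.57, and it passed on neither day. Without saline replicate 2 it passed on CFA6D. Runx1 has 7 annotated transcripts, of which 3 begin at the distal start. Transcripts of the distal start made up 16.0% to 44.8% of the Runx1 sum over the libraries, with group means of 32.9% in saline, 31.1% in CFA3D and 39.6% in CFA6D. The longest of them, Runx1-201, was at 3.28, 2.32 and 3.28 FPKM in saline, at 1.55, 3.04 and 4.13 FPKM in CFA3D and at 4.57, 5.03 and 4.13 FPKM in CFA6D. It passed in CFA6D against CFA3D (0.74 on the log2 scale, limma adjusted p = 0.916), whereas the most abundant transcript, Runx1-203, varied from 3.72 to 9.32 FPKM within saline alone.

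Runx3 (chr4:135120652-135177990, plus strand) was at 1.27, 2.48 and 1.49 FPKM in saline, at 1.81, 1.95 and 1.70 FPKM in CFA3D and at 2.80, 2.21 and 2.74 FPKM in CFA6D. Saline replicate 2 lay within the CFA6D range, and the CFA6D libraries were all above the CFA3D libraries. The log2 fold change of Runx3 was 0.11 ± 0.23 (SE) on CFA3D and 0.59 ± 0.23 on CFA6D (limma adjusted p = 0.388). The call on CFA6D was lost without saline replicates 1 or 3 and without CFA6D replicates 4 or 6. Runx3-201, the transcript of the distal start whose upstream window holds the Runx cores, carried 52.7% of the sum and was at 0.649, 0.830 and 0.886 FPKM in saline and at 1.16, 1.11 and 1.82 FPKM in CFA6D (log2 fold change 0.70, limma adjusted p = 0.632). The value of 1.82 FPKM was that of CFA6D replicate 6, the library with the most marrow granulocyte marker RNA, whereas the Runx3 sum was highest in CFA6D replicate 4. The part of granulocyte RNA in these values was not tested.

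Runx1 and Runx3 are also made by immune cells, and a marker list of 10 immune genes was set beside them. The summed level of the list was 53.5 to 60.9 FPKM in saline, 40.9 to 73.0 FPKM in CFA3D and 32.5 to 79.9 FPKM in CFA6D, with no marker at 0. Across the 9 libraries no relation to the mean of the list was found for Runx1 or Runx3. For Runx1 Pearson r was -0.19 (exact permutation p = 0.637, adjusted p = 0.659) and Spearman rho -0.43 (adjusted p = 0.417). For Runx3 r was 0.18 (exact permutation p = 0.659, adjusted p = 0.659) and rho 0.03 (adjusted p = 0.948). Without CFA6D replicates 4 and 6, the libraries farthest from the median of that mean, r was -0.34 for Runx1 and -0.01 for Runx3. So few libraries cannot exclude a relation, and an immune share of either gene was not tested. Isl1 was set beside the pituitary list in the same way, with r = -0.67 (exact permutation p = 0.0517, adjusted p = 0.129) and rho = -0.73 (adjusted p = 0.0778). Its r was -0.57 without saline replicate 3 and CFA6D replicate 4 (exact permutation p = 0.194).

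Shox2 (chr3:66971727-66981771, minus strand) was at 1.76, 1.93 and 1.31 FPKM in saline, at 2.27, 1.41 and 1.89 FPKM in CFA3D and at 2.29, 1.89 and 1.98 FPKM in CFA6D. The groups overlapped. Its log2 fold changes of 0.14 ± 0.21 (SE) and 0.30 ± 0.21 did not pass, and the 95% interval on CFA6D was -0.17 to 0.77, so that a rise of the size seen in Prdm12 was within the reach of its error. Its transcript Shox2-201 was at 0.732, 0.825 and 0.821 FPKM in saline and at 1.17, 1.12 and 1.11 FPKM in CFA6D, with no overlap (log2 fold change 0.47, limma adjusted p = 0.709), while Shox2-202 ranged from 0.250 to 1.09 FPKM within saline.

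Over all transcripts of the 10 genes, 39 were listed and 34 reached the mean of 0.1 FPKM needed for a test. On CFA3D 4 of these passed higher and 1 lower, where 4.67% of mRNA transcripts and 4.11% of lncRNA transcripts passed in either direction. On CFA6D 7 passed higher and 0 lower, against 6.81% and 6.92%. In CFA6D against CFA3D 6 passed higher and 1 lower, against 5.43% and 5.93%. limma called 0 of the 34 at an adjusted p of 0.05 in any comparison. The transcripts below the filter were Runx3-203, Drgx-203, Shox2-203, Shox2-204 and Shox2-205.

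The direct comparison of the CFA days asked whether the levels differed between them. Without saline libraries of day 6, a change in the response to CFA cannot be told apart from an effect of time. Pou4f1 and Prdm12 passed higher on CFA6D, against 3.06% of mRNA gene sums in that direction, and Isl1 passed lower, against 4.34%. Among lncRNA gene sums 5.85% passed in either direction, and Gm17226 did not. The log2 difference between the days was 0.24 ± 0.10 (SE) for Pou4f1 (limma adjusted p = 0.669), 0.23 ± 0.08 for Prdm12 (adjusted p = 0.638) and -0.28 ± 0.12 for Isl1 (adjusted p = 0.666). The groups did not overlap in Prdm12 and Runx3, which were higher on CFA6D (6.62% of mRNA gene sums), and in Isl1, which was lower (10.1%). In 9 of the 10 genes the sign was positive, with a median log2 difference of 0.17, against -0.02 for all mRNA gene sums. The call of Pou4f1 was lost when any library other than CFA3D replicate 3 and CFA6D replicate 5 was left out, that of Isl1 without saline replicate 2, CFA3D replicates 1 or 3 or CFA6D replicates 5 or 6, and that of Prdm12 without CFA3D replicate 1 or CFA6D replicate 4. In the other lists Klf7, Casz1, Bcl11b, Ebf3, Ldb1 and Tle3 passed higher in this comparison, and Zeb2 passed lower. Of the 10 pan-neuronal markers, Rbfox3 (0.49) and Syt1 (0.20) also passed higher. Only 6 of the 10 had a positive sign, with a list median of 0.04 and a lowest value of -0.13. Of the 6 satellite glia markers, Fabp7 passed lower (-0.45), and 2 of the 6 had a positive sign.

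The identity factors were then read relative to the neuronal RNA of each library. All 10 pan-neuronal markers had a positive log2 fold change on both days, with a median of 0.19 on CFA3D and 0.18 on CFA6D. Of these markers 2 and 4 passed higher, against 3.65% and 8.22% of mRNA gene sums. The largest was that of Rbfox3 on CFA6D, at 0.67 ± 0.13 (SE, limma adjusted p = 0.106). Across the 9 libraries Pou4f1 followed the mean of these markers (Pearson r = 0.87, exact permutation p = 0.00172, adjusted p = 0.00858 over 5 relations; Spearman rho = 0.87, exact permutation p = 0.00451, adjusted p = 0.0225). Without saline replicate 3 and CFA6D replicate 4, r was 0.82 (exact permutation p = 0.0266, adjusted p = 0.133), and within the groups, as deviations from their means, it was 0.67 (exact permutation p = 0.106 within groups), which did not pass.

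When each library was centred on the mean log2 level of the pan-neuronal markers, the median of all mRNA gene sums shifted to -0.13 on CFA3D and -0.24 on CFA6D. On this scale 0 of the 10 genes passed on CFA3D, against 4.05% of mRNA gene sums in either direction. On CFA6D 3 of the 10 passed, against 23.5% in either direction. In CFA6D against CFA3D 1 passed (Isl1, -0.36), against 7.47% in either direction. Shares by direction were not computed on this scale, so its higher calls have no share of higher calls beside them. Of the CFA6D calls, Pou4f1 (0.29 ± 0.10, SE) and Prdm12 (0.32 ± 0.10) were higher and Isl1 (-0.32 ± 0.08) was lower. Isl1 thus lay near the shifted median of all gene sums. The values of Tlx3, Drgx and Isl2 were 0.16, 0.11 and 0.11, those of Runx3 and Runx1 were 0.32 and 0.01, and none of these passed. Of the satellite glia markers, 0 of 6 passed on either day against saline with FPKM as deposited. Their log2 fold change was positive in 2 of 6 on CFA3D and in 0 of 6 on CFA6D, with medians of -0.03 and -0.15. Their summed level was 1006 to 1140 FPKM in saline and 800 to 1029 FPKM in CFA6D, and their part in these values was not tested.

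**Figure D4:**
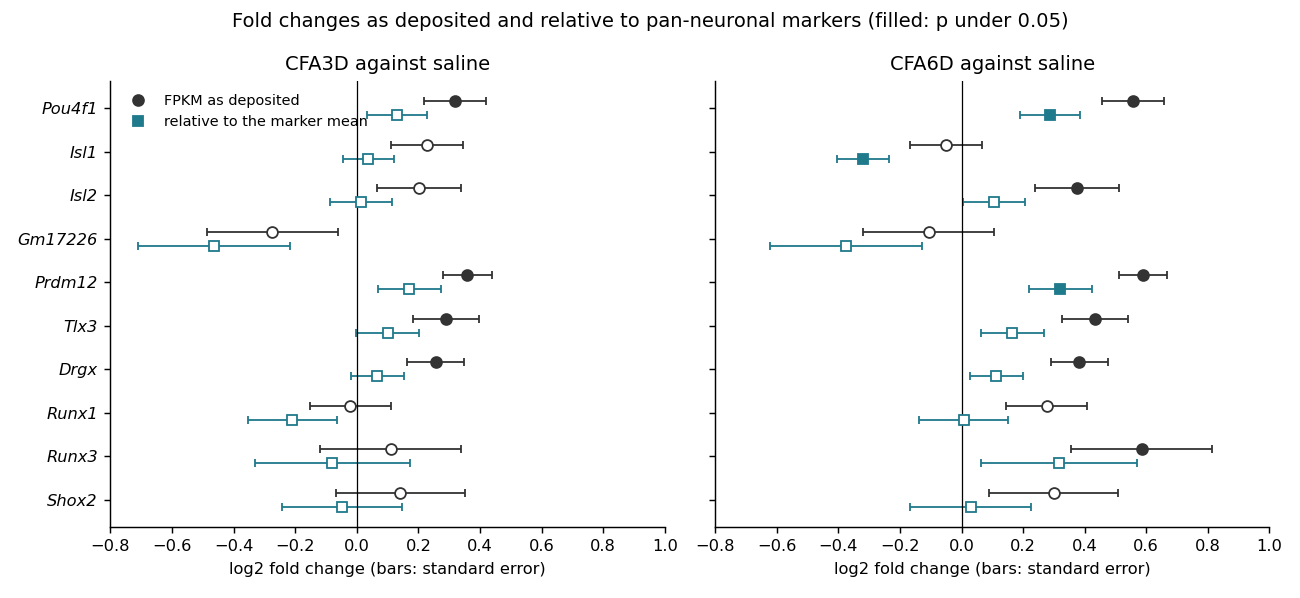
Log2 fold change with its standard error (bars) of each gene against saline on CFA3D and CFA6D, with FPKM as deposited (black circles) and after centring each library on the pan-neuronal markers (teal squares); filled symbols have an unadjusted p under 0.05. On CFA6D Pou4f1 and Prdm12 remain above 0 with filled symbols after centring, and Isl1 moves to -0.32.

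Other transcription factors of sensory neurons were described from a list of 32 genes, of which 30 were tested. On CFA3D 4 passed higher and 0 lower, and on CFA6D 7 passed higher and 1 lower, with list medians of 0.15 and 0.19. Of all mRNA gene sums, 3.65% passed higher on CFA3D and 8.22% on CFA6D. Lower calls were 129 and 458 of 16096 mRNA gene sums. Casz1, a zinc finger factor, was at 7.01, 7.35 and 7.28 FPKM in saline, at 8.41, 8.11 and 8.30 FPKM in CFA3D and at 11.0, 10.6 and 10.5 FPKM in CFA6D. Its groups did not overlap, with a log2 fold change of 0.56 ± 0.07 on CFA6D (SE, limma adjusted p = 0.0729). Klf7, a Krüppel-like factor, passed on both days (0.22 and 0.39), and so did Etv5, an ETS factor (0.37 and 0.43). Maf, Bcl11b and Onecut2 passed higher on CFA6D (0.24, 0.37 and 0.35), Zeb2 passed higher on CFA3D (0.19), and Etv4 passed lower on CFA6D (-0.46). The relatives of Pou4f1, Pou4f2 and Pou4f3, did not pass. The highest of the list were Zeb2 (42.7 FPKM on average), Klf7 (27.4) and Maf (25.6). The early neurogenic factor Neurog2 was at 0 to 0.0227 FPKM and Phox2a at 0.00969 to 0.115 FPKM, and neither was tested.

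Cofactors with which the identity factors are known to work were taken as 13 genes. Of these 1 passed higher on CFA3D, 3 passed higher on CFA6D, and 0 passed lower on either day. The share of all mRNA gene sums passing higher was 3.65% and 8.22%. Ldb1, which bridges LIM homeodomain factors such as Isl1 and Isl2, was at 28.4, 29.7 and 31.6 FPKM in saline and at 35.5, 35.9 and 35.5 FPKM in CFA6D (log2 fold change 0.25 ± 0.06, SE, limma adjusted p = 0.191). Ssbp3, which stabilises Ldb1, passed on both days (0.21 and 0.37), and the corepressor Tle3 passed on CFA6D (0.56 ± 0.13, SE, adjusted p = 0.174). Cbfb, the partner of the Runx proteins and the highest of the list at 35.9 FPKM on average, and Ehmt2, a histone methyltransferase that works with Prdm12, did not pass.

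Of 19 targets and class genes of these factors, 5 passed higher on CFA3D and 5 passed higher and 1 lower on CFA6D, with list medians of 0.28 and 0.21. Among all mRNA gene sums 3.65% and 8.22% passed higher, and on CFA6D 458 of 16096 passed lower. Gfra2, the neurturin receptor of non-peptidergic neurons, was at 9.35, 11.0 and 9.55 FPKM in saline, at 14.0, 14.1 and 13.5 FPKM in CFA3D and at 17.1, 15.2 and 14.5 FPKM in CFA6D. All CFA libraries were above saline, and the log2 fold change on CFA6D was 0.64 ± 0.09 (SE, limma adjusted p = 0.0830). Ret, the signalling receptor that pairs with Gfra2, rose by 0.32 and 0.47 on the log2 scale. Mrgprd, a receptor of non-peptidergic nociceptors, passed on CFA6D (0.51), as did the sodium channel gene Scn11a (0.38), while the cold channel gene Trpm8 (0.34) and Scn10a (0.39) passed on CFA3D. Pvalb, a class gene of Runx3 neurons, passed lower on CFA6D (-0.45), with 37.5, 47.9 and 42.2 FPKM in saline and 30.7, 26.3 and 36.7 FPKM in CFA6D. Ntrk3, Ntrk2 and Calca, the highest of the list at 312 FPKM on average, did not pass.

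**Figure D5:**
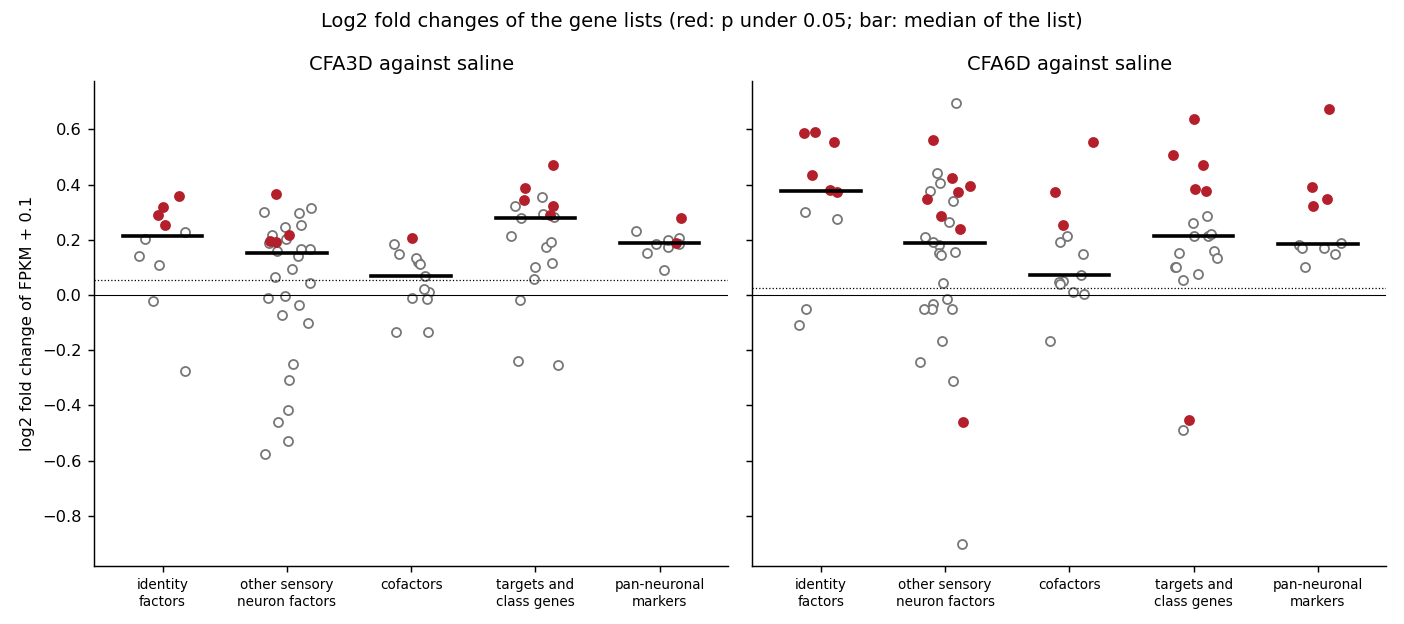
Log2 fold change of every tested gene (points, red where the unadjusted p is under 0.05) of the identity factors with Gm17226, the other sensory neuron transcription factors, the cofactors, the targets and class genes, and the pan-neuronal markers, on CFA3D (left) and CFA6D (right). The bar is the median of the list, the dotted line that of all mRNA gene sums, and the median of the identity factors rises from 0.21 to 0.38 between the panels.

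The genes whose pattern over the 9 libraries was most like each factor were found by Pearson r among 13174 mRNA gene sums of at least 1 FPKM. This is a description across libraries that share their depth and their groups. Many genes were about as close as those named, since 136 had an r over 0.9 with Prdm12 and 125 with Pou4f1. For Runx1 and Shox2 there were 3 and 4. For Prdm12 they were Jun (r = 0.98), Arl8a (0.98) and Gpc1 (0.97), and for Pou4f1 they were Ywhag, Kif2a and Rph3a (all 0.98). For Tlx3 they included Cd44 (0.98) and Mapt (0.97), and for Drgx Mmab and Hsdl1 (both 0.97). The genes closest to Isl2 were Dclk2 and Cpt1a (both 0.97) and Cds1 (0.96), and those closest to Isl1 were Aimp2 (0.96), Nap1l2 (0.95) and Pdhb (0.95). For Runx1 they were Dync1li2 (0.96), Syna (0.93) and Pja1 (0.91), and for Runx3 Tmem267 (0.94), Nod1 (0.93) and Camk2a (0.93). For the low genes they were Kctd19, 6330411D24Rik and Fndc4 (all 0.92) with Shox2, and Gemin4 (0.95), Rbm4 (0.94) and Pln (0.94) with Gm17226. Among the 10 genes themselves, the closest pairs were Tlx3 with Drgx (0.95), Pou4f1 with Prdm12 (0.92) and Isl2 with Drgx (0.90), and the best partner of Isl1 was Shox2 (0.39).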

How the data were processed

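TG total RNA was sequenced in 9 libraries. The authors deposited FPKM per transcript, in 1 table each for mRNA and lncRNA; a further table of other RNA classes was not used. Read counts were not used here, and depth was recovered from the steps between low FPKM values. The methods name rRNA depletion, a stranded total RNA kit, Trimmomatic, GRCm38 and CLC Genomics Workbench, whereas the labels name another TruSeq kit, Bowtie 0.12.2 and the build mm8. Which made the FPKM values, and the strand setting, is not given in the sources used here.

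Transcripts were matched to GENCODE M21 (GRCm38) names, 101539 of 102122 in the mRNA table and 15370 of 15657 in the lncRNA table, and FPKM were summed per gene. Values were tested as log2(FPKM + 0.1), for means of at least 0.1 FPKM, in limma 3.58.1 (R 4.3.3, moderated test with a trend, two-sided), with all 9 libraries in 1 fit per table. A call is an unadjusted p under 0.05, the cutoff of the study, with Benjamini-Hochberg adjusted values beside it. Permutation tests were exact and two-sided. The limma fit and the permutation test were tested on simulated data. The genes and lists were chosen with earlier results of these data known. Named were all 10 genes and their transcripts of at least 0.1 FPKM, from the lists those with a call, the 3 highest and any at 0 throughout, and the 3 genes closest in pattern. Some genes that this rule names are not reported here, although the counts of the lists include them. Neighbouring genes were looked up after values were seen. Alternatives were the pseudocount, the filter, quantile normalization, centring on neuronal markers, the most abundant transcript, the groups in the fit, a replicate block, a fold cutoff and leaving out each library. Same-numbered saline and CFA3D libraries did not deviate together (r from -0.08 to 0.09).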

Additional observations from a re-analysis of the deposited data

Results flagged for a closer look

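The following genes and transcripts passed the direct test of CFA6D against CFA3D in limma at an unadjusted p under 0.05. Since no saline library is labelled day 6, this compares levels and not responses to CFA. The adjusted p-values ranged from 0.476 (Casz1) to 0.916, so none passed the correction. Of the identity factors, Pou4f1 (log2 difference 0.24) and Prdm12 (0.23) were higher on CFA6D and Isl1 (-0.28) was lower. Of their transcripts, Pou4f1-202 (0.53), Isl2-205 (0.68), Gm17226-202 (1.63), Runx1-201 (0.74), Prdm12-201 (0.23) and Drgx-204 (0.32) were higher, and Isl1-205 (-0.51) was lower. Of the other transcription factors, Klf7 (0.18), Casz1 (0.36), Bcl11b (0.38) and Ebf3 (0.25) were higher and Zeb2 (-0.24) was lower. Of the cofactors, Ldb1 (0.24) and Tle3 (0.44) were higher.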

How the results depend on the processing

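Over the 10 genes and 3 comparisons, 580 alternative values were computed, of which 487 kept direction and side of the threshold, 58 no longer passed, 17 newly passed and 18 changed sign. The changes of sign concerned values that did not pass in the report. With the most abundant transcript alone, Gm17226 became 1.11 on CFA3D (which passed), 0.63 on CFA6D and -0.47 between the days, Runx1 on CFA3D 0.0097 and Isl1 on CFA6D 0.032. Relative to the pan-neuronal markers, Runx3 and Shox2 on CFA3D became -0.079 and -0.048. Leaving out 1 library gave ranges across 0 on CFA3D for Runx1 (-0.12 to 0.11), Runx3 (-0.076 to 0.38) and Shox2 (-0.013 to 0.32), on CFA6D for Isl1 (-0.15 to 0.022), and between the days for Gm17226 (-0.062 to 0.30) and Shox2 (-0.017 to 0.31). Pou4f1 and Prdm12 passed on CFA6D under all 19 alternatives other than a fold cutoff. The numbers of genes called were 4 on CFA3D, 6 on CFA6D and 3 between the days. They became 0, 0 and 0 when a log2 fold change of at least 1 was also asked, where 55, 94 and 124 of 16096 mRNA gene sums passed. Relative to the pan-neuronal markers they became 0, 3 and 1, against 4.05%, 23.5% and 7.47% of mRNA gene sums in either direction. The numbers under the other settings have no share of all gene sums beside them here, so a general shift in calls is not separated from them. Quantile normalization left 2 on CFA3D. Leaving out 1 library gave 2 to 6 on CFA3D (2 without saline replicate 2, saline replicate 3 or CFA3D replicate 3, and 6 without saline replicate 1), 4 to 6 on CFA6D and 1 to 3 between the days (1 without CFA3D replicate 1 or CFA6D replicate 4). With the replicate block, 2 genes were called on CFA3D, where Tlx3 and Drgx were lost; the numbers are not shown to pair the libraries. Chosen after seeing the data, leaving out saline replicate 3 and CFA6D replicate 6 gave 2 on CFA3D and -0.013 for Shox2 on CFA3D, and protein-coding transcripts only gave 1 between the days and 0.017 for Isl1 on CFA6D. The relation of Pou4f1 to the pan-neuronal markers did not pass as deviations from the group means (r = 0.67), and that of Runx3 to the immune markers changed sign without the 2 libraries farthest from the median (r = -0.013). Apart from the settings whose construction shows it, the cause was not tested. Depth limits Gm17226, Runx3 and Shox2 most.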
